A study of Caenorhabditis elegans with 80 samples.

Results

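The npr-1 pathway and the oxygen sensors around it were followed through 80 two-colour oligonucleotide arrays of Caenorhabditis elegans L3 larvae. The 6 genes are the neuropeptide receptor gene npr-1, its ligand genes flp-18 and flp-21, the globin gene glb-5 and the soluble guanylate cyclase genes gcy-35 and gcy-36. They were chosen by name, and each had 1 probe with a single gene name, so the account covers 6 of the 23232 probes and 6 of the 16367 named genes on the array. The genes npr-1 (C39E6.6), flp-18 (Y48D7A.2) and gcy-36 (C46E1.2) lie on chromosome X, flp-21 (C26F1.10) and glb-5 (C18C4.1) on chromosome V, and gcy-35 (T04D3.4) on chromosome I.

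The animals were recombinant inbred (RI) strains derived from the Bristol strain N2 and the Hawaiian strain CB4856 and then selfed, so that each strain is a fixed mosaic of both parental genomes. Worms were grown for 40 h at 24 °C or for 72 h at 16 °C, and the RNA of whole larvae of 2 strains was hybridised on each array, with 40 arrays per temperature and strains paired to be genetically distant. The same 2 strains stood on the same dyes at both temperatures for 39 pairs. No parental strain was hybridised, so each value is a ratio between 2 RI strains and not a level, and which dye is in the numerator is not stated. Some strains recurred, namely WN80 and WN38 with 2 arrays at either temperature and WN65 with 2 at 24 °C, which involves 5 of the 39 pairs, and p-values treat the pairs as independent. The pair WN3/WN22 stood apart: over the 242 probes that repeated between temperatures its ratios at 24 °C and 16 °C had r = -0.674, where the median over pairs was 0.749. The next lowest r were 0.082 for WN60/WN77, 0.272 for WN68/WN37 and 0.284 for WN45/WN12. Leaving out WN3/WN22 changed the call of 2 results on these genes, and both are given with and without that pair. Each array holds a single RNA sample of a strain, so that strain and culture cannot be told apart within a temperature. All worms at 24 °C were 40 h old and all at 16 °C were 72 h old. Temperature, age and set of arrays thus cannot be told apart in a difference between 24 °C and 16 °C. In whole larvae, fewer cells of a type and less RNA per cell cannot be told apart, and neither can transcript abundance and a sequence difference between the parents under the probe.

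NPR-1 is a G protein-coupled receptor of the RMG hub neurons and of oxygen-sensing neurons, and FLP-18 and FLP-21 are FMRFamide-like peptides that activate it. The N2 and CB4856 isoforms of NPR-1 differ at a single amino acid, and with the less active CB4856 form worms gather in groups and leave high oxygen, whereas N2 worms feed alone. GCY-35 and GCY-36 form the oxygen-binding cyclase of the URX, AQR and PQR neurons, whose cGMP opens the channel made of TAX-2 and TAX-4. GLB-5, a globin of the same neurons, tunes their response, and its N2 allele carries a partial duplication that disturbs the gene.

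Among the 6 genes, gcy-35 had the widest spread of ratios at 24 °C. At that temperature they ran between -4.25 (WN13/WN21) and 6.57 (WN75/WN66) with a median of -0.29 on the log2 scale, and at 16 °C between -2.16 (WN16/WN34) and 2.33 (WN1/WN80) with a median of -0.17. The SD over all 40 arrays was 1.96 at 24 °C, larger than for 94.8% of all probes, and 1.12 at 16 °C. The ratios of glb-5 ran between -3.23 (WN27/WN56) and 2.80 (WN57/WN32) with a median of 0.03 at 24 °C, and between -2.96 (WN4/WN73) and 3.85 (WN5/WN25) with a median of 0.17 at 16 °C. Its 2 strains differed by more than 1 log2 unit on 18 arrays at 24 °C and on 19 arrays at 16 °C.

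The receptor gene had its extreme values at 16 °C. The ratio of npr-1 lay between -2.66 (WN15/WN35) and 1.92 (WN1/WN80) with a median of 0.07 at 24 °C, and between -5.75 (WN9/WN62) and 3.52 (WN16/WN34) with a median of -0.21 at 16 °C. Its SD over the 40 arrays was 1.03 at 24 °C and 1.505 at 16 °C. For flp-18 the ratio lay between -2.02 (WN80/WN7) and 2.07 (WN1/WN80) with a median of -0.07 at 24 °C, and between -1.54 (WN60/WN77) and 1.23 (WN31/WN44) with a median of -0.24 at 16 °C. For flp-21 it lay between -3.14 (WN38/WN47) and 2.46 (WN1/WN80) with a median of -0.01 at 24 °C, and between -1.55 (WN19/WN55) and 1.796 (WN70/WN48) with a median of 0.17 at 16 °C. The second cyclase gene, gcy-36, had the smallest SD of the 6 genes at 24 °C (0.88) and an SD of 0.98 at 16 °C. It lay between -2.40 (WN45/WN12) and 1.99 (WN75/WN66) with a median of -0.15 at 24 °C, and between -2.50 (WN2/WN52) and 1.24 (WN9/WN62) with a median of -0.28 at 16 °C. The values of the temperatures overlapped for all 6 genes.

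**Figure D1:**
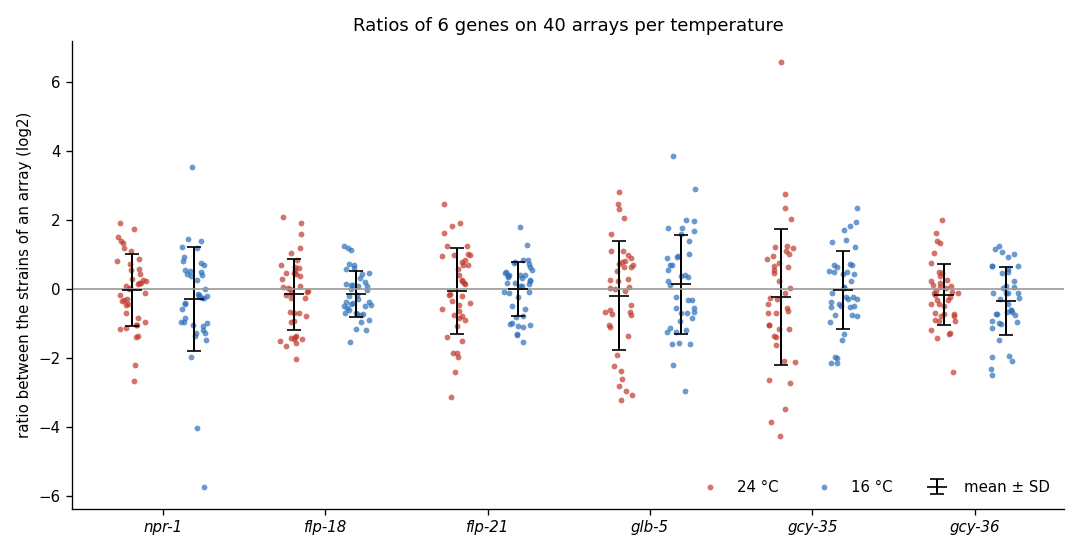
Log2 ratio between the 2 strains of an array for each of the 6 genes (points: 40 arrays at 24 °C, red, and 40 arrays at 16 °C, blue; bars: mean ± SD). The points of gcy-35 reach 6.57 at 24 °C, and those of npr-1 reach -5.75 at 16 °C.

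The first comparison asked whether the strains differed more at one temperature than at the other. Of the 6 genes, gcy-35 was the only gene whose spread over the 39 matched pairs differed between the temperatures past the threshold, where the SD was 1.97 over the 24 °C ratios and 1.13 over the 16 °C ratios, a ratio of 1.74 (Pitman-Morgan test, Benjamini-Hochberg adjusted p = 0.00875 over all probes). Over the whole array the spread was larger at 24 °C for 6.12% of probes and larger at 16 °C for 3.0%, and the median SD ratio was 1.08. These shares hold for the deposited scaling, in which the median absolute ratio was 0.66 at 24 °C and 0.59 at 16 °C. With every array centred and scaled, more probes had a larger spread at 16 °C than at 24 °C. The difference for gcy-35 rested on WN75/WN66, the pair at 6.57, without which the ratio was 1.46 (adjusted p = 0.104). On ranks the ratio was 1.23 and did not pass, but on ranks no probe of the array passed at either temperature.

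For the ligand genes the SD ratios were 1.55 for flp-18 (SD 1.03 over the 24 °C and 0.66 over the 16 °C ratios, adjusted p = 0.0771) and 1.60 for flp-21 (SD 1.25 over the 24 °C and 0.78 over the 16 °C ratios, adjusted p = 0.0535), and neither passed. The receptor lay on the opposite side, since the SD of npr-1 was 1.05 over the 24 °C ratios and 1.53 over the 16 °C ratios, a quotient of 0.69 (adjusted p = 0.135). That ratio was 0.61 with every array centred and scaled (adjusted p = 0.0447). Without WN9/WN62 the ratio of npr-1 was 0.83. For glb-5 the SDs were 1.57 at 24 °C and 1.43 at 16 °C (ratio 1.10, adjusted p = 0.751), and for gcy-36 they were 0.89 at 24 °C and 0.98 at 16 °C (ratio 0.91, adjusted p = 0.774).

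The second comparison asked whether the ratio of a strain pair at 24 °C repeated at 16 °C, as it would for a strain difference shared by both temperatures. None of the 6 genes passed the adjusted threshold, which 1.04% of all probes did with a positive correlation and 0.0258% with a negative one, and 2 of the 6 had a positive correlation at an unadjusted p under 0.05, against 5.93% of all probes. These were the genes glb-5 and gcy-35. For glb-5 the temperatures correlated with r = 0.489 (n = 39 pairs, permutation p = 0.00158, adjusted p = 0.113, rho = 0.469 with permutation p = 0.00253). Its ratio had the same sign at both temperatures in 23 of 39 pairs, and r was 0.483 once the 2 pairs farthest from the median were dropped. Among its pairs, 8 differed by more than 1 log2 unit at both temperatures in the same direction and 2 in opposite directions. Leaving out WN60/WN77 gave r = 0.550 and an adjusted p of 0.0356.

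For gcy-35, r was 0.453 (permutation p = 0.00381, adjusted p = 0.209, rho = 0.468 with permutation p = 0.00272), the sign was shared by 27 of 39 pairs, and dropping the 2 farthest pairs left r at 0.414. The smallest r that passed on the array was 0.529, so that the 2 oxygen-sensor genes lay below it but above 98.7% and 98.3% of all probes. The receptor and its ligands had r of -0.150 for npr-1 (adjusted p = 0.944), 0.114 for flp-18 (adjusted p = 0.960) and 0.083 for flp-21 (adjusted p = 0.973), and gcy-36 had 0.077 (adjusted p = 0.976), beside a median of 0.03 over all probes. The pair with the most extreme ratio of npr-1, WN9/WN62, stood at 1.19 at 24 °C and at -5.75 at 16 °C.

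**Figure D2:**
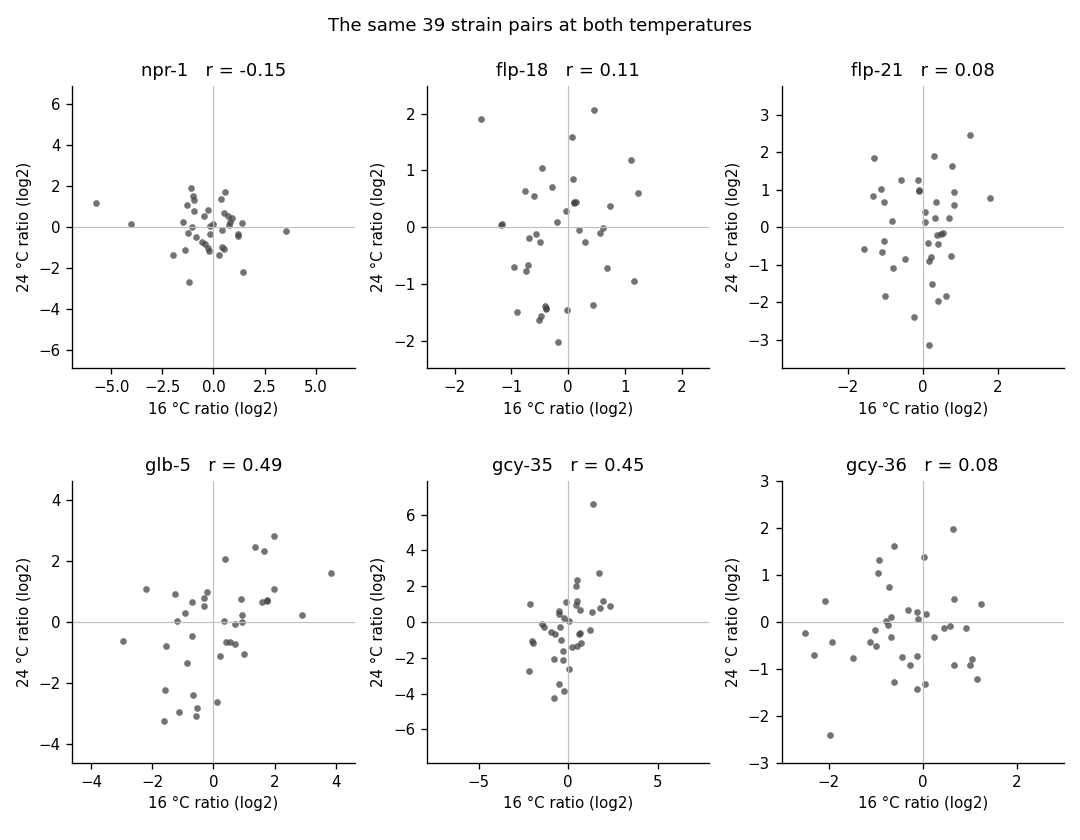
Ratio at 24 °C (vertical axis, log2) against the ratio at 16 °C (horizontal axis, log2) for the 39 strain pairs, in a panel for each gene with Pearson's r. The points of glb-5 (r = 0.489) and gcy-35 (r = 0.453) rise from lower left to upper right, and those of npr-1, flp-18, flp-21 and gcy-36 show no such slope (r between -0.150 and 0.114).

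A strain difference in a stretch of chromosome can be followed through the neighbours of a gene. A local score was taken as the first principal component of the neighbouring probes within 2 Mb whose own ratios repeated between temperatures, and each ratio of the gene was set against the score from the arrays of the opposite temperature. For glb-5, with 9 such neighbours on chromosome V, r was 0.425 for the 24 °C ratio (adjusted p = 0.116) and 0.486 for the 16 °C ratio (adjusted p = 0.0579), and neither passed. With neighbours within 1 Mb these values were 0.528 for the 24 °C ratio (adjusted p = 0.0131) and 0.602 for the 16 °C ratio (adjusted p = 0.00242), and without WN3/WN22 the value for the 16 °C ratio was 0.521 (adjusted p = 0.0287). Of all probes with a local score, 4.26% passed for the 24 °C ratio and 2.8% for the 16 °C ratio. The genes most like glb-5 across temperatures were K11D12.7 (mean r = -0.540) and F13H6.4 (mean r = 0.480), both among those neighbours on chromosome V, followed by sek-1 (0.450), C36B1.9 (0.450) and ZK105.1 (-0.444). For the other genes the most alike were F44E5.3 for npr-1 (mean r = -0.453), Y73B6BL.28 for flp-18 (0.438), C17G10.6 for flp-21 (0.449), fbxa-79 for gcy-35 (0.444) and klp-12 for gcy-36 (-0.471), each on another chromosome than the gene itself. These are the highest of all named probes over the 39 pairs, given with no test.

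For gcy-36, with 4 neighbours on chromosome X, r with the local score was 0.478 at 24 °C (adjusted p = 0.0492) and -0.110 at 16 °C (adjusted p = 0.910). The difference of 0.588 passed the swap of temperatures within pairs (permutation p = 0.00586), a test added after the relations had been seen. By the same test flp-21, glb-5 and gcy-35 did not pass (permutation p = 0.561, 0.674 and 0.361). Among the neighbours of gcy-36, rab-14, a small GTPase of membrane traffic, had r with the 24 °C ratio of gcy-36 of 0.469, and it was picked after its value was seen. The call at 24 °C was narrow and was lost on leaving out any of 26 of the 39 pairs in turn, with r between 0.443 and 0.511 over all of them. For gcy-35, with 19 neighbours on chromosome I, r was 0.242 for the 24 °C ratio and 0.059 for the 16 °C ratio. For flp-21, with 4 neighbours, it was -0.280 for the 24 °C ratio and -0.150 for the 16 °C ratio, and none of these passed. The genes npr-1 and flp-18 had 2 repeatable neighbours each, fewer than the 3 needed for a score.

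The third comparison set the genes against one another on the same arrays, over 15 pairs of genes at each temperature. The ligand genes flp-18 and flp-21 went together, with r = 0.686 at 24 °C (n = 40 arrays, permutation p = 1e-05, the smallest the resamples can give, rho = 0.650 with permutation p = 2e-05). The adjusted p was 0.000109 among all probes tested against flp-18 and 0.000174 among those tested against flp-21. The sign of their ratios was shared by 26 of 40 arrays, and r was 0.610 without the 2 farthest arrays. At 16 °C r was 0.503 (permutation p = 0.00097, rho = 0.518 with permutation p = 0.00071), with adjusted p-values of 0.0663 and 0.0982 that did not pass. The difference between temperatures was 0.154 (permutation p = 0.229). Between different temperatures, the same genes had r of 0.022 for the 24 °C ratio of flp-18 with the 16 °C ratio of flp-21 and 0.054 the other way round.

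The receptor had r = 0.481 with flp-18 at 24 °C (n = 40, permutation p = 0.00175, rho = 0.505 with permutation p = 0.00119). Among all probes tested against flp-18 the adjusted p was 0.0179, where 7.2% of probes passed with a positive and 6.86% with a negative r. Among those tested against npr-1 it was 0.134, which did not pass. By absolute r, npr-1 ranked 2196 among the probes tested against flp-18, and flp-18 ranked 294 among those tested against npr-1. Without the 2 farthest arrays r was 0.618. At 16 °C r was 0.095 (permutation p = 0.564), and the difference of 0.391 did not pass (permutation p = 0.100). With WN31/WN44 left out the difference was 0.530 (permutation p = 0.0146). The receptor and flp-21 had r of 0.282 at 24 °C and 0.173 at 16 °C (permutation p = 0.0793 at 24 °C and 0.286 at 16 °C). Among the other pairs none passed, and the cyclase genes gcy-35 and gcy-36, whose products form 1 complex, had r of 0.239 at 24 °C and -0.137 at 16 °C. The genes flp-21 and glb-5 had r of 0.301 at 24 °C and -0.154 at 16 °C, a difference of 0.420 (permutation p = 0.0419, 1 of 15 differences tested). Without WN3/WN22 that difference was 0.411 (permutation p = 0.0507). Both genes lie on chromosome V, and all 4 repeatable neighbours of flp-21 were also neighbours of glb-5.

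**Figure D3:**
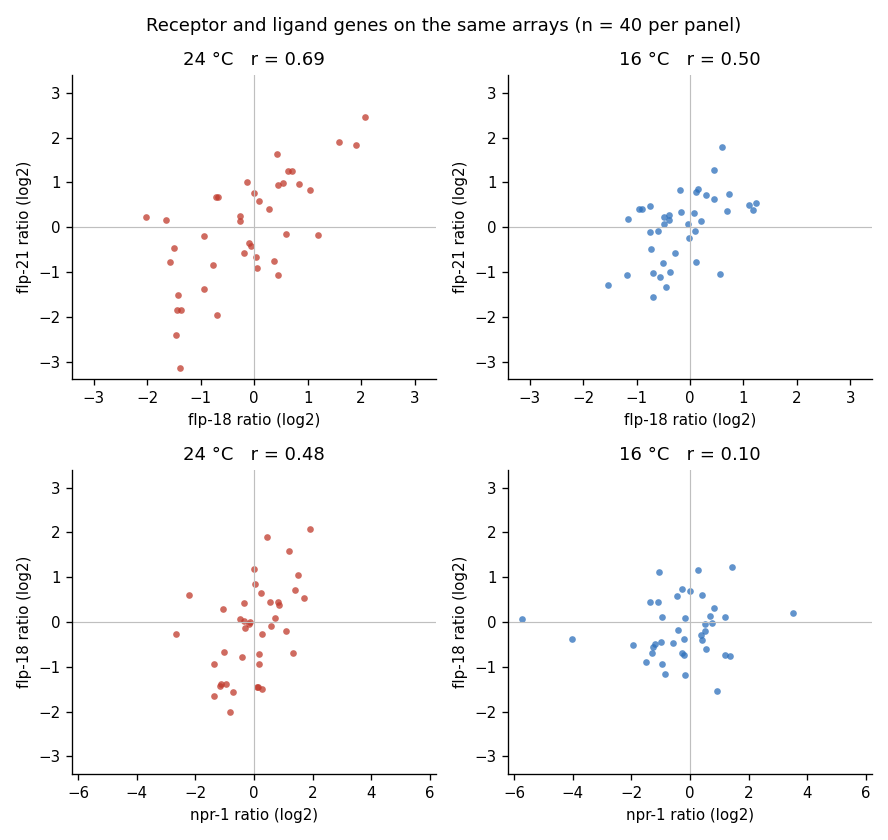
Log2 ratios of the 2 ligand genes (upper row) and of the receptor gene npr-1 with the ligand gene flp-18 (lower row), 40 arrays at 24 °C on the left in red and 40 arrays at 16 °C on the right in blue. The ligand genes rise together at both temperatures (r = 0.686 at 24 °C and 0.503 at 16 °C), and npr-1 rises with flp-18 at 24 °C (r = 0.481) but not visibly at 16 °C (r = 0.095).

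Each recurring strain stood on 2 arrays of a temperature with opposite dyes, so that a strain's own deviation would turn the sign of the ratio, while its partner strain differed as well. For WN80 at 24 °C, on WN1/WN80, with WN80 labelled with Cy5, the ratios were 1.92 for npr-1, 2.07 for flp-18 and 2.46 for flp-21. On WN80/WN7, with WN80 labelled with Cy3, they were -0.84 for npr-1, -2.02 for flp-18 and 0.24 for flp-21. With WN38 labelled with Cy5, on WN58/WN38 at 24 °C, the ratios were 0.54 for npr-1, 0.45 for flp-18 and 0.94 for flp-21. With WN38 labelled with Cy3, on WN38/WN47, they were -0.97 for npr-1, -1.39 for flp-18 and -3.14 for flp-21, so that all 3 genes turned their sign. For WN65 only npr-1 did, with 0.17 for npr-1, -0.94 for flp-18 and -1.39 for flp-21 on WN14/WN65 (WN65 with Cy5) and -0.43 for npr-1, -0.77 for flp-18 and -0.84 for flp-21 on WN65/WN30 (WN65 with Cy3). Which genes turned their sign thus differed between the 3 strains. At 16 °C flp-18 stood at 0.45 on WN1/WN80 and at -0.17 on WN80/WN7, and flp-21 stood at 1.27 on WN1/WN80 and at 0.34 on WN80/WN7.

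Scans of every other probe placed each gene among the rest of the transcriptome. At 24 °C, flp-18 was related to 1673 probes with a positive r (7.2%) and 1594 with a negative r (6.86%), and flp-21 to 1682 (7.24%) and 1536 (6.61%). At 16 °C the counts were 125 (0.538%) and 100 (0.43%) for flp-18 and 65 (0.28%) and 20 (0.0861%) for flp-21. Of the probes positively related to flp-18, 103 passed at both temperatures, which is 6.16% of the 24 °C list and 82.4% of the 16 °C list. For flp-21 it was 48 probes, 2.85% of the 24 °C list and 73.8% of the 16 °C list. Fewer negative relations passed at both, with 31 probes for flp-18, 1.945% of the 24 °C list and 31% of the 16 °C list. For flp-21 there were 13 such probes, 0.846% of the 24 °C list and 65% of the 16 °C list. The oxygen sensors had next to no relations by the same test: none for glb-5 and gcy-35 at either temperature, where 8.66% and 5.56% of probes had an unadjusted p under 0.05 at 24 °C and 5.36% and 4.84% at 16 °C. For gcy-36 there were 2 at 24 °C (cyp-32B1 with a positive r and K05C4.3 with a negative r, each 0.0043% of probes) and 0 at 16 °C, with 9.06% of probes under an unadjusted 0.05 at 24 °C and 6.19% at 16 °C. The receptor gene npr-1 had 2 at 24 °C (0.00861%), F14D7.8 (r = 0.698, adjusted p = 0.0111) and F38B6.6 (r = 0.688, adjusted p = 0.0111), and 0 at 16 °C, with 13.8% of probes under an unadjusted 0.05 at 24 °C and 6.14% at 16 °C. These genes with 2 relations or fewer were named after their values were seen.

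Neuropeptide genes were among the probes closest to flp-18. At 24 °C these were nlp-52 (r = 0.869), snet-1 (0.868), nlp-64 (0.868), the calcium-binding protein gene cal-2 (0.861) and flp-19 (0.859), a peptide gene of the URX and BAG oxygen and carbon dioxide neurons. These too were picked after the scan was seen. A count over all flp and nlp genes, a list also chosen after the scan, gave 56 of 83 positively related to flp-18 at 24 °C (median r = 0.616, beside -0.015 over all probes) and 16 of 83 at 16 °C (median r = 0.341, beside -0.009). For flp-21 the counts were 55 of 83 at 24 °C (median r = 0.570, beside 0.001) and 10 of 83 at 16 °C (median r = 0.336, beside 0.003). None was negatively related to either ligand gene. For npr-1 no gene of the 84 passed, and the median r was 0.327 at 24 °C (beside -0.013 over all probes) and 0.126 at 16 °C (beside 0.005).

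**Figure D4:**
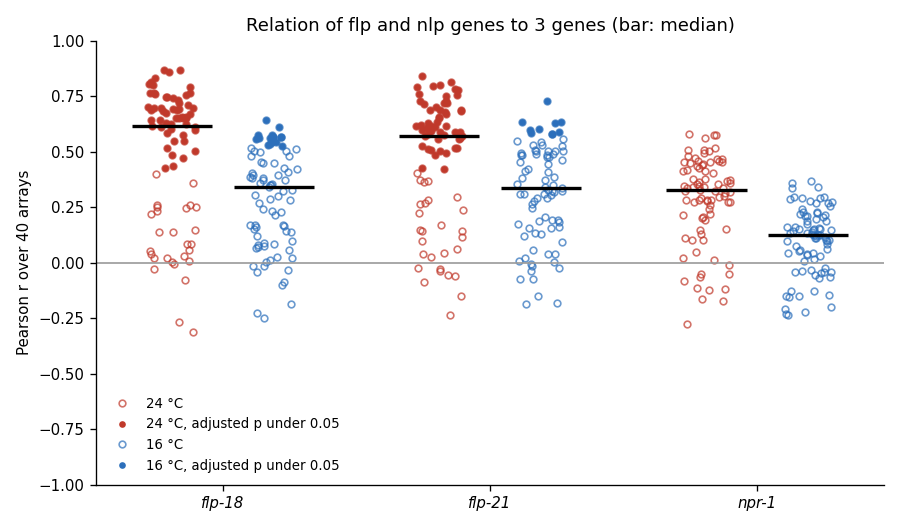
Pearson's r over 40 arrays of each flp and nlp gene with flp-18, flp-21 and npr-1, at 24 °C (red, left of each pair) and 16 °C (blue, right), with filled points for an adjusted p under 0.05 and a bar at the median. At 24 °C, 56 of 83 genes passed with flp-18, 55 of 83 with flp-21 and 0 of 84 with npr-1. Of all probes, 7.2% passed with a positive r for flp-18, 7.24% for flp-21 and 0.00861% for npr-1.

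Markers of tissue and stage moved with the same genes, and their part in these relations was not tested. The mean standardised ratio of the pan-neuronal genes, of which 7 of 14 were on the array with 8 probes, was related to flp-21 (r = 0.722, adjusted p = 0.000298) and flp-18 (r = 0.671, adjusted p = 0.000868) at 24 °C, and at 16 °C r was 0.462 for flp-21 (adjusted p = 0.132) and 0.198 for flp-18 (adjusted p = 0.655). Of all probes, 9.58% were related to that mean at 24 °C and 0.396% at 16 °C. For npr-1 it was 0.426 at 24 °C (adjusted p = 0.0591) and 0.299 at 16 °C (adjusted p = 0.428). Of the 8 probes, 4 were related to flp-18 at 24 °C by themselves, beside 7.2% of all probes with a positive r. Picked after its value was seen, egl-21, a carboxypeptidase that processes neuropeptides, had r of 0.780 with flp-18 at 24 °C, whereas unc-31 had -0.035 and unc-18 had 0.128, which did not pass. The mean log2 ratio over these probes ran between -1.05 and 0.94 at 24 °C and between -0.76 and 1.02 at 16 °C. Markers of later stages ran the other way, with r to flp-18 at 24 °C of -0.577 for 15 major sperm protein genes (adjusted p = 0.00292) and -0.543 for the 6 vitellogenin genes (adjusted p = 0.00698), and -0.514 for flp-21 with the vitellogenin genes (adjusted p = 0.0132). Both later-stage lists had wider extremes of the mean log2 ratio than the pan-neuronal genes. For the vitellogenin genes these were -4.22 and 3.87 among the 24 °C arrays, and -3.86 and 4.12 among the 16 °C arrays. For the sperm genes they were -1.92 and 4.02 among the 24 °C arrays, and -2.08 and 1.33 among the 16 °C arrays. Of all probes, 7.46% were related to the sperm and 9.24% to the vitellogenin genes at 24 °C, against 2.55% and 1.2% at 16 °C. At 16 °C none of these relations of flp-18 and flp-21 passed, and flp-18 was related to the furrow collagens of the molt (r = -0.555, adjusted p = 0.0262), as were 1.53% of all probes, whereas 2.56% were at 24 °C. For glb-5, gcy-35 and gcy-36 no marker list passed at either temperature, with the largest absolute r at 0.254. The first 2 principal components of the 24 °C arrays held 9.17% and 6.09% of the variance, flp-18 and flp-21 had absolute r of 0.784 and 0.777 with the first of them, and with both removed the r between flp-18 and flp-21 at 24 °C was 0.044 (adjusted p = 0.954).

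The study lists genes whose own expression is linked to a region of chromosome V (cis-QTL, a linkage of a transcript to its own locus), and the last comparison set the 6 genes against a score of that region. The score was the first principal component of 43 such genes, again read from the opposite temperature. That list was chosen by the study on these same arrays and is not independent evidence. The genes flp-21 and glb-5 lie on the same chromosome as the region, and the part of linkage in their relations was not tested. The score itself repeated between the temperatures (r = 0.890), and swapping the strains of a pair would turn the ratio and the score together, so that a negative r means that a gene ran against the bulk of the genes of the region.

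At 24 °C the ratios of npr-1 and flp-21 were related to the score, both with a negative r. For npr-1 r was -0.624 (n = 39, permutation p = 4e-05, adjusted p = 0.0129, rho = -0.580 with permutation p = 0.00021), and -0.567 without the 2 farthest pairs. For flp-21 it was -0.576 (permutation p = 0.00016, adjusted p = 0.0237, rho = -0.607 with permutation p = 8e-05), and -0.524 without the 2 farthest pairs. For flp-18 it was -0.481 (permutation p = 0.00207, adjusted p = 0.0613, rho = -0.462 with permutation p = 0.00337), which did not pass, and -0.404 without the 2 farthest pairs. Of all probes tested 2.33% passed at 24 °C. The pair with the lowest 16 °C score, WN9/WN62, had 24 °C ratios of 1.19 for npr-1, 1.59 for flp-18 and 1.90 for flp-21, and the pair with the highest, WN38/WN47, had -0.97 for npr-1, -1.39 for flp-18 and -3.14 for flp-21. The ratios of these 2 pairs thus had opposite signs for all 3 genes.

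At 16 °C no relation of these genes to the score passed, with r of 0.229 for npr-1, 0.058 for flp-18 and -0.009 for flp-21 (adjusted p = 0.999 each), where 0.00431% of probes passed. The difference between 24 °C and 16 °C was -0.853 for npr-1 (swap of temperatures within pairs, permutation p = 0.00098), -0.539 for flp-18 (permutation p = 0.00136) and -0.567 for flp-21 (permutation p = 0.00219), among 6 differences tested. Over the flp and nlp genes, 21 of 84 were negatively related to the score at 24 °C, beside 259 of all 23180 probes tested (median r = -0.401, beside 0.012 over all probes), and 0 of 84 were at 16 °C (median r = 0.023, beside 0.003). For the oxygen sensors r at 24 °C was -0.316 for glb-5, 0.211 for gcy-35 and 0.012 for gcy-36, and at 16 °C it was -0.277 for glb-5, 0.011 for gcy-35 and -0.096 for gcy-36, and none passed.

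**Figure D5:**
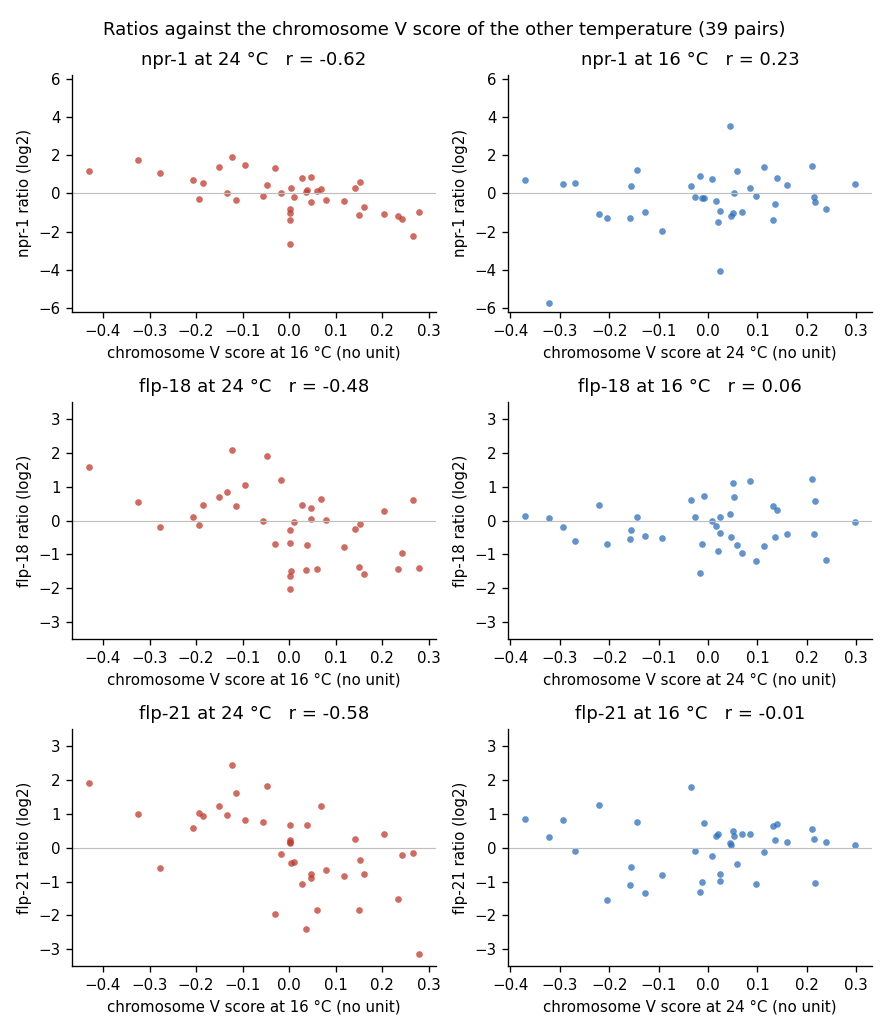
Log2 ratio of npr-1, flp-18 and flp-21 (rows) against the chromosome V score of the other temperature for 39 strain pairs, with the 24 °C ratios on the left in red and the 16 °C ratios on the right in blue. The red points fall from left to right (r = -0.624 for npr-1, -0.481 for flp-18 and -0.576 for flp-21), and the blue points do not (r = 0.229 for npr-1, 0.058 for flp-18 and -0.009 for flp-21).

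Both calls at 24 °C were lost without the 5 pairs of recurring strains, which leaves 34 pairs. Then r was -0.608 for npr-1 (adjusted p = 0.0808) and -0.496 for flp-21 (adjusted p = 0.161), while the differences between temperatures were -0.875 for npr-1 (permutation p = 0.00381) and -0.639 for flp-21 (permutation p = 0.00168). With the first 2 principal components of each temperature removed, r at 24 °C was -0.295 for npr-1, 0.164 for flp-18 and -0.088 for flp-21, and none passed. Leaving out WN9/WN62 or WN38/WN47 alone ended the call for flp-21, at an adjusted p of up to 0.111, and left that for npr-1 at up to 0.0431 over all pairs left out in turn. Markers moved with the score as well: at 24 °C its r was -0.485 with the pan-neuronal genes, 0.435 with the major sperm protein genes and 0.562 with the vitellogenin genes, and at 16 °C it was -0.114 with the pan-neuronal, 0.232 with the sperm and -0.178 with the vitellogenin genes. Their part in the relation was not tested.

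Other genes of the pathway were read from 9 lists with 75 of 88 genes on the array (76 probes). None of these probes repeated between temperatures, and the median r was 0.005, beside 0.03 over all probes. The spread was larger at 24 °C for 4 of them and larger at 16 °C for 2 of the 76, beside 6.12% and 3.0% of all probes, with a median SD ratio of 1.08, beside 1.08 over all probes. These shares were no larger than those of the whole array. The 4 were ilcr-1, an interleukin-17 receptor gene that acts in aggregation (adjusted p = 0.044), the globin genes glb-8 (adjusted p = 0.0211) and glb-33 (adjusted p = 0.00756), and C17H11.1 (adjusted p = 0.00736). The study picked C17H11.1 on these same arrays, in a group of genes linked to a region mostly at 24 °C. Its larger spread there is not independent of that choice. The 2 were the globin genes glb-18 (adjusted p = 0.000778) and glb-20 (adjusted p = 0.00577).

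At 24 °C, 22 of the 76 probes were related to flp-18 (21 with a positive r, median r = 0.273) and 19 to flp-21 (all positive, median r = 0.247). Genes that the study picked on these same arrays made up 4 of those related to flp-18 and 3 of those related to flp-21. That part of the counts is not independent of the study's choice. Over all probes, 7.2% had a positive and 6.86% a negative relation to flp-18, and 7.24% a positive and 6.61% a negative one to flp-21. At 16 °C it was 1 for flp-18, the peptide gene flp-19 (r = 0.528, adjusted p = 0.0488), and 0 for flp-21, beside 0.538% of all probes with a positive and 0.43% with a negative relation to flp-18, and 0.28% and 0.0861% for flp-21. The genes named next were picked after their values were seen. Besides the peptide genes flp-17 (r = 0.800 with flp-18 and 0.753 with flp-21 at 24 °C) and flp-19, the genes related at 24 °C held daf-7, the TGF-beta ligand of the ASI neurons (0.579 with flp-18 and 0.581 with flp-21), and aha-1, a partner of the transcription factor AHR-1 of the oxygen neurons (0.575 with flp-18 and 0.502 with flp-21). The channel gene tax-2 was related to flp-18 (r = 0.542, adjusted p = 0.00517) and the cyclase gene gcy-32 as well (r = 0.523, adjusted p = 0.00779). The exception in sign was ilcr-2, with r of -0.555 to flp-18 (adjusted p = 0.00384). Of 30 other globin genes, 9 were related to flp-18 and 8 to flp-21 at 24 °C, all with a positive r, where 7.2% and 7.24% of all probes were. Among them was glb-1 (0.652 with flp-18 and 0.510 with flp-21). The other receptors of these peptides, npr-4, npr-5, npr-6, npr-10 and npr-11, had no relation to either ligand gene past the threshold at either temperature, nor did the 4 genes of the hypoxia response on the array.

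Among the genes singled out by the study, flp-9 had r at 24 °C of 0.710 with flp-18 (adjusted p = 4.66e-05), 0.678 with flp-21 (adjusted p = 0.000221) and 0.580 with npr-1 (adjusted p = 0.0874). At 16 °C r was 0.096 with flp-18, 0.304 with flp-21 and 0.125 with npr-1, and none passed. The receptor gene sphr-1 (C24B5.1) had r of 0.679 with flp-18, 0.595 with flp-21 and 0.634 with npr-1 at 24 °C (adjusted p = 0.000134, 0.00206 and 0.0527), and frpr-15 (K10C8.2) had 0.611 with flp-18 and 0.489 with flp-21 (adjusted p = 0.000994 and 0.0164). The gene nmur-1 (C48C5.1), a neuromedin U receptor gene, had 0.115 with flp-18 (adjusted p = 0.729), and C17H11.1 had 0.441 (adjusted p = 0.0353). The study picked these genes from these arrays, and their relations are not independent of that choice.

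Of the pathway probes, 6 of 76 were related to the chromosome V score at 24 °C, all with a negative r, and 0 at 16 °C, beside 2.33% of all probes at 24 °C and 0.00431% at 16 °C. They were gcy-34, a soluble guanylate cyclase gene (r = -0.667, adjusted p = 0.00501), tax-2 (r = -0.541, adjusted p = 0.0348), flp-17 (r = -0.509, adjusted p = 0.0451), flp-19 (r = -0.546, adjusted p = 0.0329), flp-9 (r = -0.569, adjusted p = 0.0252) and sphr-1 (r = -0.649, adjusted p = 0.00748). The study picked flp-9 and sphr-1 for their linkage to this region on the same arrays, so that their relations to the score are not independent of that choice, and the other 4 were named after their values were seen. The r of gcy-34 with npr-1 itself was 0.474 at 24 °C (adjusted p = 0.141).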

How the data were processed

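The values that the authors deposited are normalized log ratios, 1 for each probe of an array, taken as log2 since the notes of the submitters name limma (without a version) and limma uses that base. Base, centring and numerator dye are not given in the sources used here. The median absolute ratio equalled 0.661 on each array at 24 °C and 0.592 on each at 16 °C, so arrays had been scaled within a temperature and not between them. No value was missing. Single intensities were not used here, so nothing is known of the signal over background, and precision is limited by how many arrays there are.

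Gene names came from the platform's probe table, with 1 gene for 17447 probes, of which 17358 were joined to assembly WBcel235 for names and neighbours only. Arrays with identical strains and dyes were matched into 39 pairs. Pearson r and Pitman-Morgan p-values were two-sided and adjusted (Benjamini-Hochberg) over all probes of a test, with a threshold of 0.05. They measure the spread between these arrays. Single relations had two-sided permutation tests of 100000 resamples, and differences in r were tested by swapping temperatures within pairs; those for the scores were added after the relations had been seen. Lists are described by counts, with no test of their own. The rule for named genes took the 6 genes, list genes past the repeatability or spread test, the genes the study names, and the genes most alike across temperatures; others are marked where they were picked after their values were seen. The genes and lists were chosen with earlier results of these data known. The alternatives were other scalings, ranks, removal of components, other windows and thresholds, and pairs left out. The calculations used Python 3.11.15, numpy 2.4.6, scipy 1.17.1 and pandas 2.3.3, tested on simulated data.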

Additional observations from a re-analysis of the deposited data

Results flagged for a closer look

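Differences between the temperatures passed a test for 6 results. Age and set of arrays went with temperature, so these differences cannot be assigned to temperature itself. The p-values of the differences in r were not adjusted for the number of differences tested. The r of npr-1 with the chromosome V score was lower at 24 °C than at 16 °C by 0.853 (a difference of -0.853), that of flp-18 differed by -0.539 and that of flp-21 by -0.567. The r of gcy-36 with the score of its neighbours was higher at 24 °C than at 16 °C by 0.588. The r of flp-21 with glb-5 was higher at 24 °C by 0.420, 1 of 15 pairs of genes compared, and lost its call without any of 16 of the 39 pairs. The SD of gcy-35 over strain pairs was larger at 24 °C than at 16 °C by a factor of 1.74. Without WN75/WN66 that factor was 1.46, which did not pass (Pitman-Morgan test, adjusted p = 0.104).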

How the results depend on the processing

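Each of 49 results was recomputed under the alternatives that applied, which gave 400 values. Of these, 325 kept their direction and their side of the threshold, or stayed within 1.5 times for a count. Without the 2 farthest pairs the threshold was not checked, and the 26 results counted as unchanged there are among the 325. Local scores were compared by absolute r, so that a change in their direction could not show. Removal of the first 2 principal components of each temperature had the widest effect. With it, r with the chromosome V score at 24 °C was -0.295 for npr-1, 0.164 for flp-18 and -0.088 for flp-21, at 16 °C it was -0.045 for flp-18 and 0.026 for flp-21, and the differences between temperatures were 0.208 for flp-18 and -0.114 for flp-21, while that for npr-1 was -0.505 (permutation p = 0.0205). The r of flp-18 with flp-21 at 24 °C was 0.044, differences in r were -0.020 for npr-1 with flp-18, -0.342 for flp-18 with flp-21 and 0.152 for flp-21 with glb-5, the local r of gcy-36 at 24 °C was 0.442, and the SD ratio of npr-1 was 0.57. The counts were then 4 probes related to flp-18 at 24 °C and 9 at 16 °C (3267 and 225 before), 110 related to flp-21 at 24 °C (3218 before), 0 related to the chromosome V score at 24 °C (539 before) and 134 repeatable (242 before). The absolute r with the first component at 24 °C was 0.784 for flp-18, 0.777 for flp-21 and 0.628 for the mean of the pan-neuronal genes. The removal takes out whatever they share with it, and what that component stands for was not tested.

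Without the pairs of recurring strains, r with the chromosome V score was -0.608 for npr-1 and -0.496 for flp-21 at 24 °C and 0.144 for flp-21 at 16 °C, the repeatability of flp-21 was -0.030, the local r of glb-5 at 16 °C was 0.545, and the counts were 2170 for flp-18 at 24 °C, 1544 for flp-21 at 24 °C and 25 at 16 °C (85 before), and 19 for the score. Without WN3/WN22 the local r of glb-5 at 16 °C was 0.521, the difference for flp-21 with glb-5 was 0.411 and the score count 351. With arrays centred and scaled, the SD ratio was 0.61 for npr-1 and 0.98 for glb-5, the local r of gcy-36 at 24 °C was 0.477, and 605 probes had a larger spread at 24 °C and 1339 at 16 °C (1421 and 698 before). On ranks the SD ratio of gcy-35 was 1.23, the repeatability of gcy-36 was -0.016, the spread counts were 0 at 24 °C and 0 at 16 °C, and the score count at 16 °C was 3 (1 before). With each temperature scaled by its median SD, 850 probes had a larger spread at 24 °C. With neighbours within 1 Mb the local r of glb-5 was 0.528 at 24 °C and 0.602 at 16 °C, and within 4 Mb that of gcy-36 at 24 °C was 0.484. Without the 2 farthest pairs the r of flp-21 with the score at 16 °C was 0.099. Adjustment over probes with an SD above the median gave 1708 and 80 probes for flp-18 at 24 °C and 16 °C, 1663 and 33 for flp-21, and 346 for the score. A threshold of 0.01 gave 1771 and 38 for flp-18, 1446 and 12 for flp-21, 28 for the score at 24 °C, 152 repeatable, and 572 and 311 for the spread at 24 °C and 16 °C.

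Leaving out each pair in turn gave ranges of 0.456 to 0.550 for the repeatability of glb-5, -0.0064 to 0.160 for flp-21 (below 0 without WN1/WN80) and -0.036 to 0.133 for gcy-36 (below 0 without WN45/WN12). The SD ratio ranged over 1.46 to 1.84 for gcy-35, 1.46 to 1.63 for flp-18 and 1.46 to 1.72 for flp-21, and flp-18 passed without WN31/WN44 or WN64/WN63 and flp-21 without WN13/WN21, WN19/WN55, WN42/WN11, WN51/WN74, WN61/WN39, WN68/WN37, WN70/WN48 or WN8/WN41. The r of flp-18 with flp-21 at 16 °C ranged over 0.455 to 0.564 and passed without WN8/WN41. Local r ranged over 0.380 to 0.514 for glb-5 at 24 °C, 0.441 to 0.526 at 16 °C (passed without any of 2 pairs at 24 °C and 6 at 16 °C) and 0.443 to 0.511 for gcy-36 at 24 °C. With the chromosome V score at 24 °C, r ranged over -0.537 to -0.419 for flp-18 (passed without WN19/WN55, WN31/WN44 or WN75/WN66), -0.624 to -0.524 for flp-21 and -0.081 to 0.063 for gcy-36, and at 16 °C over -0.013 to 0.126 for flp-18 and -0.083 to 0.063 for flp-21. The difference in r ranged over 0.303 to 0.530 for npr-1 with flp-18 and 0.351 to 0.489 for flp-21 with glb-5, which lost its call without any of 16 of the 39 pairs. The differences for npr-1, flp-18 and flp-21 with the chromosome V score and for gcy-36 with its neighbours passed in all 39 cases.

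The cause of these changes was not tested. Every test of a difference between the temperatures used the 39 matched strain pairs. Neighbours within 1 Mb gave no score for flp-21 and gcy-36. The array holds 1 probe for each of the 6 genes and 1 array per strain pair and temperature.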
